A study of Mus musculus with 4 samples.

Results

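A set of 10 genes that mark resident macrophages in mouse tissue, with the 3 genes of complement C1q among them, was followed through bulk RNA-seq of mouse gut: Csf1r, Adgre1, Cx3cr1, Cd68, Mrc1, Cd163, C1qa, C1qb, C1qc and Itgax. They were chosen by name, and the value of a gene was the sum over the transcripts listed under its symbol. All 10 were found among the 55203 genes in the files, with 30 transcripts between them. Tissue came from adult male C57BL/6NTac mice, wild type, kept specific-pathogen-free (SPF) and 8 to 12 weeks old. Of 4 libraries, 2 carried the label RVC, for processing with the ribonuclease inhibitor ribonucleoside vanadyl complex at 4 mM, and 2 the label fresh frozen (FF). The purpose given for the series was a bulk measurement to set beside MERFISH imaging, and no question is stated for RVC against fresh frozen. The labels name the tissue ileum while the protocol text names distal colon, and 1 protocol text with an RVC rinse accompanies all 4 libraries, so that handling may be shared by both groups. Each library has a batch number of its own, so group and batch cannot be told apart. No label says whether the libraries came from separate mice. The p-values therefore measure the spread between these 4 samples, which may be technical.

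Macrophages of the gut wall are replaced in large part by blood monocytes, and they depend on the receptor CSF1R, which binds the growth factors CSF1 and IL-34. They take up debris and bacteria and are kept in a quiet state by interleukin 10 and TGF beta. C1q is the recognition molecule of the classical complement pathway, assembled from the products of C1qa, C1qb and C1qc. Most complement proteins of blood are made in the liver, but C1q is made mainly by macrophages and dendritic cells in the tissues.

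Values are FPKM, the fragments of a transcript divided by its length and by the mapped fragments of the library, scaled between libraries by factors of 0.991 to 1.01. Read counts were not given, so the depth is unknown in absolute terms. Relative depth, read from coverage per FPKM, was 72.6% to 100% of that of the deepest library, FF 2. The authors' confidence bounds for a transcript above 1 FPKM had a median half-width of 16.9% to 19.4% of its value. Colon markers were abundant in all 4 libraries, with Car1, a colonic carbonic anhydrase, between 1589 and 1789 FPKM. Of the 5 ileal markers, Fgf15, Apoa4 and Defa22 were listed at 0 in all 4. Fabp6, the ileal bile acid-binding protein, lay between 2.72 and 3.91 FPKM, and Slc10a2 between 2.35 and 3.07. The tissue is therefore called gut wall here. A lower number of cells of one type and less RNA per cell cannot be told apart in such bulk samples.

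The 3 C1q genes had the highest means of the 10, and each was higher in both RVC libraries than in either FF library, an order that 26.5% of all tested genes had. In C1qa (ENSMUSG00000036887), which encodes the A chain, levels were 15.7 FPKM in RVC 1, 15.7 in RVC 2, 11.3 in FF 1 and 7.95 in FF 2. C1qb (ENSMUSG00000036905), for the B chain, had 11.4 and 13.97 FPKM in RVC 1 and 2 and 10.6 and 8.18 in FF 1 and 2. C1qc (ENSMUSG00000036896), for the C chain, had 12.1 and 12.3 FPKM in RVC 1 and 2 and 9.06 and 5.35 in FF 1 and 2. FF 2 was the lowest library for all 3 chains, while the RVC libraries lay close together for C1qa and C1qc and apart for C1qb.

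Group means for C1qa were 15.7 ± 0.0124 FPKM in RVC and 9.64 ± 2.38 in FF (SD, n = 2 each), a ratio of 1.63. On the log2(scaled FPKM + 1) scale the difference was 0.67 (SE 0.16, 95% interval 0.29 to 1.05), and its adjusted p over 13775 genes was 0.138 (limma, two-sided, Benjamini-Hochberg). For C1qc the means were 12.2 ± 0.161 and 7.20 ± 2.62 FPKM (SD, n = 2 each), a ratio of 1.69. Its log2 difference was 0.72 (SE 0.21, 95% interval 0.23 to 1.21, limma adjusted p = 0.164). The difference was smaller for C1qb, at 0.40 (SE 0.16, 95% interval 0.028 to 0.77, limma adjusted p = 0.251), with means of 12.7 ± 1.82 and 9.39 ± 1.71 FPKM (SD, n = 2 each). None of the 3 passed the adjusted threshold of 0.05. C1qc had the widest interval of the 3, and its difference was 1.05 with an adjusted p of 0.0425 when FF 1 was left out. Without FF 2 the differences were 0.43 for C1qa, 0.23 for C1qb and 0.39 for C1qc. Without FF 1 they were 0.90, 0.57 and 1.05 in the same order, so the size of all 3 depended on which FF library was kept. The C1qb difference was 0.26 without RVC 2.

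**Figure D1:**
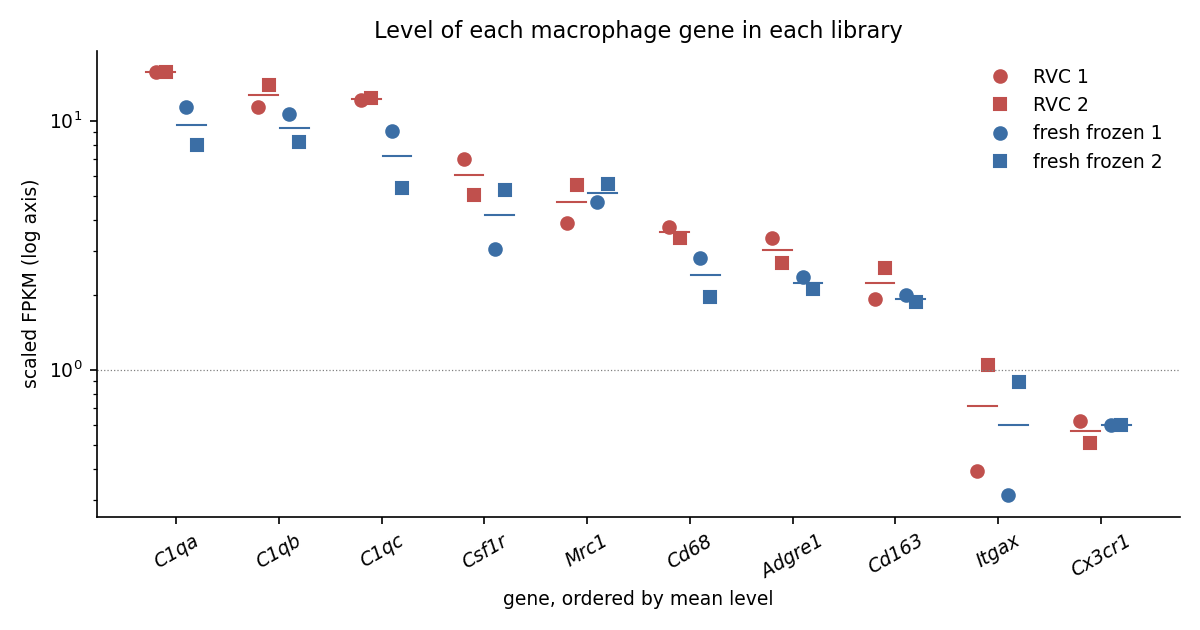
Scaled FPKM of each of the 10 genes on a log axis, by library, with circles for sample 1 and squares for sample 2 of RVC (red) and fresh frozen (blue), and a bar at each group's mean. The C1q genes have the highest means and run from 5.35 to 15.7 FPKM, a range that Csf1r in RVC 1 and Mrc1 in RVC 2 and FF 2 reach too, and Itgax and Cx3cr1 lie at or below about 1 FPKM, marked by the dotted line.

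Within a library the 3 chains stayed within a narrow band of each other. C1qa was 1.30, 1.28, 1.25 and 1.49 times C1qc in RVC 1, RVC 2, FF 1 and FF 2, a mean log2 ratio of 0.41 ± 0.11 (SD, n = 4). The ratio of C1qa to C1qb was 1.38, 1.12, 1.07 and 0.972 in the same order, and that of C1qc to C1qb was 1.06, 0.880, 0.854 and 0.653. C1qa and C1qc thus kept more nearly the same proportion to each other than either did to C1qb. FPKM is per length, so levels of different genes can be set side by side, although these ratios have no test.

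The genes lie in a row on the minus strand of chromosome 4 (GRCm39), in the order C1qb, C1qc and C1qa by coordinate, within 20.2 kb. In the files C1qb spans chr4:136607440-136613498, C1qc chr4:136617115-136620376 and C1qa chr4:136623228-136626114, and all 3 are protein-coding. The gaps between their annotated ends in the GENCODE vM39 annotation are 2954 and 2846 bp. A lncRNA on the opposite strand, Gm69251, shares 247 of the 2860 exon bases of C1qc and 61 of the 6246 of C1qb. The strand setting of the quantification is not given in the sources used here, so reads of that lncRNA could be part of these values.

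Promoter sequence from RefSeq (GRCm38.p6 table, each 250 bases upstream of the RefSeq start, matched at 1 place on the chromosome in GRCm39) was at hand for 7 of the 10 genes, among them C1qb and C1qc. Sequences were searched on both strands for GAGGAA, the core bound by PU.1, the transcription factor that defines the myeloid lineage. It was present in 4 of the 7, against 23.3% of 32851 promoters of the same length. Mrc1 held 3 copies, at 180, 167 and 35 bases upstream of the RefSeq start. C1qb had 1 copy at 30 bases, C1qc 1 at 193 and Cd68 1 at 225, and 3.54% of all promoters held 2 or more. The RefSeq start lay 151 bases inside the annotated gene for C1qc, 74 for Mrc1 and 71 for Cd68, and at the annotated start for C1qb. The Mrc1 copy at 35 bases therefore lies within the annotated gene. A second motif searched on both strands, TGCTGA, was in 1 of the 7 (C1qb, at 131 bases upstream), against 16.1% of all promoters. These matches describe letters, not bound sites. Matches on either strand (GAGGAA or its reverse complement TTCCTC) are in capitals below. The stretches end at the annotated gene start and carry 5 of the 6 GAGGAA matches. They show where the cores lie in members that were followed in the libraries, 5′ to 3′ on the strand of the gene.
C1qb, chr4:136613512-136613761, minus strand: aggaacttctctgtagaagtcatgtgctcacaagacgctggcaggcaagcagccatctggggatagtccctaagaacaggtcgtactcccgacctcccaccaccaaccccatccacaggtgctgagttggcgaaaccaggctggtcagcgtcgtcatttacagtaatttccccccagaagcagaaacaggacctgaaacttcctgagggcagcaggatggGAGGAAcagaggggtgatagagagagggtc
C1qc, chr4:136620377-136620475, minus strand: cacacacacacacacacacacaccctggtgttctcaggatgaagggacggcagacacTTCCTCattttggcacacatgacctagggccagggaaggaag
Cd68, chr11:69557068-69557246, minus strand: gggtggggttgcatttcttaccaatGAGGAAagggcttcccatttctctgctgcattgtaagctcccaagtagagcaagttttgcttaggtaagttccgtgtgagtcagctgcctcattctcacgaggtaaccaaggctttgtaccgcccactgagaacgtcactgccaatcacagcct
Mrc1, chr2:14233975-14234150, plus strand: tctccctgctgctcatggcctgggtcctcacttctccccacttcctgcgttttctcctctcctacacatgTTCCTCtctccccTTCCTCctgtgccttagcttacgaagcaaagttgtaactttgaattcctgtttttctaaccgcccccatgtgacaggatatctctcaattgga

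Csf1r, which encodes the growth factor receptor of macrophages, had a lower mean than each C1q gene. Csf1r (ENSMUSG00000024621) had 7.03 FPKM in RVC 1, 5.05 in RVC 2, 3.06 in FF 1 and 5.28 in FF 2. Its groups overlapped, since FF 2 exceeded RVC 2. Means were 6.04 ± 1.40 FPKM in RVC and 4.17 ± 1.57 in FF (SD, n = 2 each), with a log2 difference of 0.47 (SE 0.23, 95% interval -0.081 to 1.01, limma adjusted p = 0.322). Leaving out 1 library at a time gave differences of 0.15 to 0.78.

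Much of the disorder in Csf1r lay in a 416-nt transcript, ENSMUST00000237706. Deposited FPKM of this short form were 2.77 in RVC 1 (the authors' bounds 1.14 to 4.40), 0.0115 in RVC 2, 0.0871 in FF 1 and 1.33 in FF 2 (bounds 0.286 to 2.38). It made up 39.5%, 0.228%, 2.81% and 25.4% of the gene sum in that order, so it was substantial in 1 library of each group. The 3870-nt transcript, ENSMUST00000025523, had 3.76 (3.33 to 4.19), 4.51 (4.04 to 4.99), 2.59 (2.22 to 2.95) and 3.52 FPKM (3.14 to 3.89) in RVC 1, RVC 2, FF 1 and FF 2. For it both RVC libraries lay above both FF libraries, with a log2 difference of 0.35 and a limma adjusted p of 0.433 over 24188 transcripts. The share of transcripts with that order was not counted, and among all tested genes it was 26.5%. Summing only the 3 Csf1r transcripts of at least 1000 nt, a cut chosen after the values were seen, gave 3.98 and 4.91 FPKM in RVC and 2.87 and 3.80 in FF. Exons of Csf1r share 1461 of 7361 bases with Hmgxb3 on the opposite strand, and a part of Hmgxb3 reads in these values was not tested.

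Both ligands of CSF1R and the ligand of CX3CR1 were measured. Il34 had 15.6 and 12.2 FPKM in RVC 1 and 2 and 7.37 and 8.85 in FF 1 and 2, a log2 difference of 0.71 (SE 0.15, limma adjusted p = 0.129). Csf1 was lower and overlapped, at 2.59, 2.50, 2.91 and 1.89 FPKM in the same order, with a difference of 0.077. Cx3cl1, encoding the membrane-bound chemokine fractalkine, had 26.6 and 23.8 FPKM in RVC and 19.1 and 16.3 in FF, a difference of 0.49 (SE 0.12, limma adjusted p = 0.146). Il34 was more abundant than Csf1 in every library. Il34 and Cx3cl1 were higher in both RVC libraries, an order that 26.5% of all tested genes had, and none of the 3 passed the threshold.

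Cx3cr1 (ENSMUSG00000052336, chr9:119877749-119898945 in GENCODE vM39), the fractalkine receptor of monocyte-derived macrophages, had the lowest mean of the 10, though Itgax was lower in RVC 1 and FF 1. It had 0.622 and 0.509 FPKM in RVC 1 and 2 and 0.599 and 0.601 in FF 1 and 2, or 0.583 ± 0.0502 over all 4 (SD, n = 4). Its mean lay under the minimum of 1 FPKM set for testing. A fit with no filter on low values gave a log2 difference of -0.032 (limma adjusted p = 0.924 over 31792 genes). That steady sum was made of unsteady parts, because 1 of its 3 transcripts, ENSMUST00000177637, took 70.7%, 15.9%, 66.7% and 29.5% of it in RVC 1, RVC 2, FF 1 and FF 2. This 3156-nt model is not in GENCODE vM39 and runs over chr9:119730682-119897349, across Wdr48, Gorasp1, Ttc21a, Csrnp1 and Xirp1. Wdr48 itself was at 14.4 FPKM on average, and whether reads of these neighbours entered the Cx3cr1 value was not tested.

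Adgre1 and Cd68, the genes behind the F4/80 and CD68 antigens used to stain mouse macrophages, did not overlap between the groups either. Both had the RVC libraries above, an order that 26.5% of all tested genes had. Adgre1 (ENSMUSG00000004730, chr17:57665691-57790527), an adhesion G protein-coupled receptor, had 3.39 and 2.69 FPKM in RVC 1 and 2 and 2.36 and 2.11 in FF 1 and 2. Its log2 difference was 0.32 (SE 0.15, limma adjusted p = 0.312), and it was 0.19 without RVC 1. Cd68 (ENSMUSG00000018774, chr11:69555039-69556979), a glycoprotein of lysosomes and endosomes, had 3.75 and 3.39 FPKM in RVC 1 and 2 and 2.82 and 1.96 in FF 1 and 2. The Cd68 difference was 0.44 (SE 0.17, 95% interval 0.049 to 0.83, limma adjusted p = 0.236), and it was 0.25 without FF 2.

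Most of the Adgre1 difference was absent from its 3238-nt protein-coding transcript, ENSMUST00000086763. That form had 1.69, 1.90, 1.52 and 1.70 deposited FPKM in RVC 1, RVC 2, FF 1 and FF 2, with a log2 difference of 0.098 (SE 0.17, limma adjusted p = 0.803). Here the groups were separated by less than the spread within them, with FF 2 above RVC 1. A 402-nt form was listed at 0.784 FPKM in RVC 1 (the authors' bounds 0 to 1.78) and 0.351 in RVC 2 (0 to 0.957). It was near 0 in both FF libraries, with upper bounds of 0.352 in FF 1 and 0.254 in FF 2, so the bounds overlapped. Cd68, by contrast, was carried by a single 1230-nt form, at 98.5% of the gene sum on average.

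**Figure D2:**
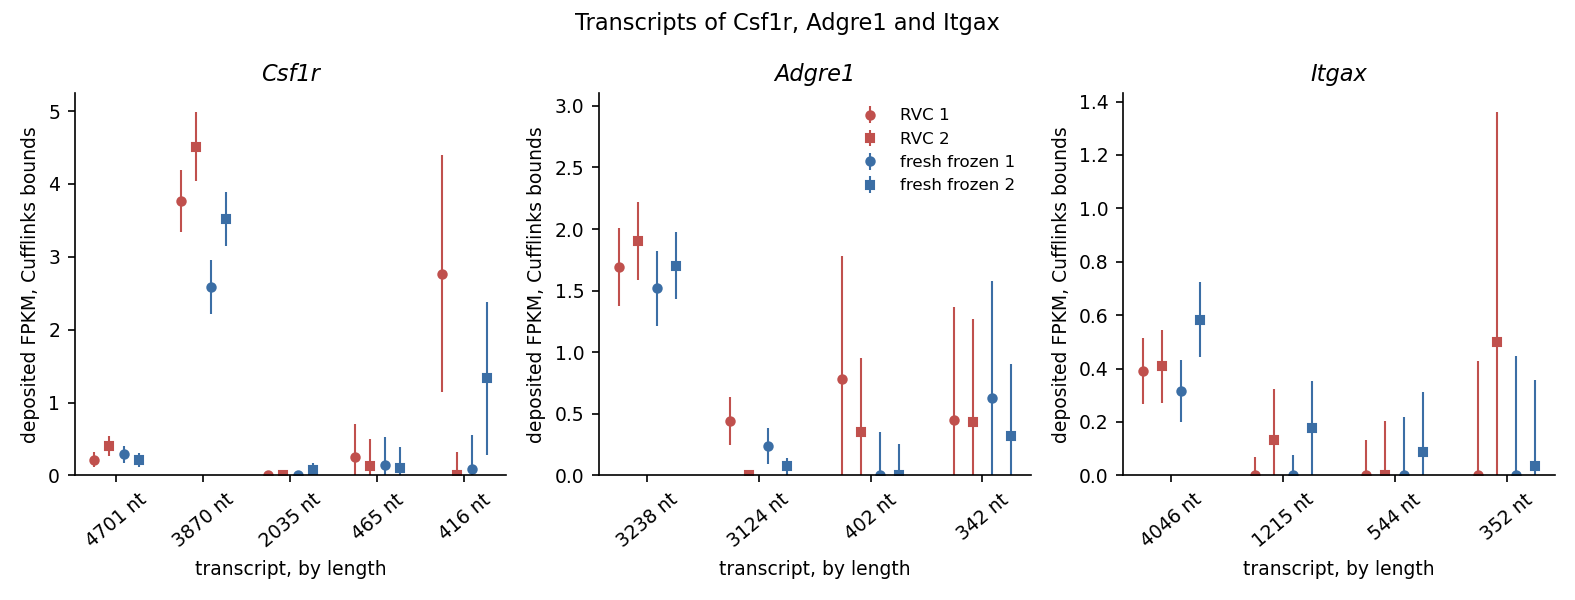
Deposited FPKM of the transcripts of Csf1r, Adgre1 and Itgax, named by length, in RVC (red) and fresh frozen (blue), sample 1 as circles and sample 2 as squares, with the authors' Cufflinks confidence bounds as vertical lines. The 416-nt Csf1r form is at 2.77 FPKM in RVC 1 and 1.33 in FF 2 and near 0 in the other 2 libraries, with much wider bounds than the 3870-nt form.

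The scavenger receptors Mrc1 and Cd163, which mark macrophages that clear glycoproteins and haemoglobin, showed no such separation. Mrc1 (ENSMUSG00000026712, chr2:14234203-14336868), the mannose receptor CD206, had 3.88 and 5.52 FPKM in RVC 1 and 2 and 4.70 and 5.56 in FF 1 and 2. Both samples numbered 2 exceeded both numbered 1, and the group difference was -0.12 (SE 0.17, limma adjusted p = 0.735). It was the 1 tested member with a negative difference, which became 0.093 without RVC 1. Nearly all of it, 97.7% on average, was the 5374-nt transcript, whose bounds in RVC 1 (3.39 to 4.12) lay below those in RVC 2 (4.97 to 5.89). The spread between the RVC libraries is therefore wider than the authors' bounds for each.

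Cd163 (ENSMUSG00000008845, chr6:124281615-124307486), the receptor for haemoglobin bound to haptoglobin, had 1.92 and 2.56 FPKM in RVC 1 and 2 and 1.99 and 1.87 in FF 1 and 2. RVC 2 stood above the other 3 libraries. The difference of 0.14 (SE 0.16, limma adjusted p = 0.658) became -0.0051 without RVC 2.

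Itgax (ENSMUSG00000030789, chr7:127728719-127749829) encodes CD11c, an integrin shared by dendritic cells and gut macrophages. It had 0.392 and 1.04 FPKM in RVC 1 and 2 and 0.313 and 0.891 in FF 1 and 2, or 0.659 ± 0.360 over all 4 (SD, n = 4), under the minimum for testing. As with Mrc1, both samples numbered 2 were higher than both numbered 1. In RVC 2 a 352-nt retained-intron form made up 47.9% of the sum, at 0.498 FPKM with bounds of 0 to 1.36. The 4046-nt form had 0.391, 0.409, 0.316 and 0.583 FPKM in RVC 1, RVC 2, FF 1 and FF 2. On that form alone RVC 2 lay near RVC 1, and only FF 2 stayed high. With no filter on low values the Itgax difference was 0.097 (limma adjusted p = 0.920).

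Of the 10 genes, 8 had a mean of at least 1 FPKM and were tested, and 0 passed an adjusted p of 0.05 in limma, where 0.0363% of all 13775 genes passed, 0.0145% with higher and 0.0218% with lower values in RVC. Adjusted p ranged from 0.138 to 0.735. At an unadjusted p under 0.05 there were 4 of 8 (C1qa, C1qb, C1qc and Cd68), all higher in RVC, where 18.4% of all genes passed, 9.38% with higher and 8.99% with lower values in RVC. Groups did not overlap, with RVC above, for 5 of 8 (those 4 and Adgre1), against 26.5% of all genes, or 53.2% for no overlap in either direction. The difference was above 0 for 7 of 8, against 51% of all genes. The median difference of the 8 was 0.42, beside 0.0062 for all tested genes, and it was 0.26 without FF 2. Among 9 tested transcripts of these genes 0 passed, against 0.00413% of 24188.

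**Figure D3:**
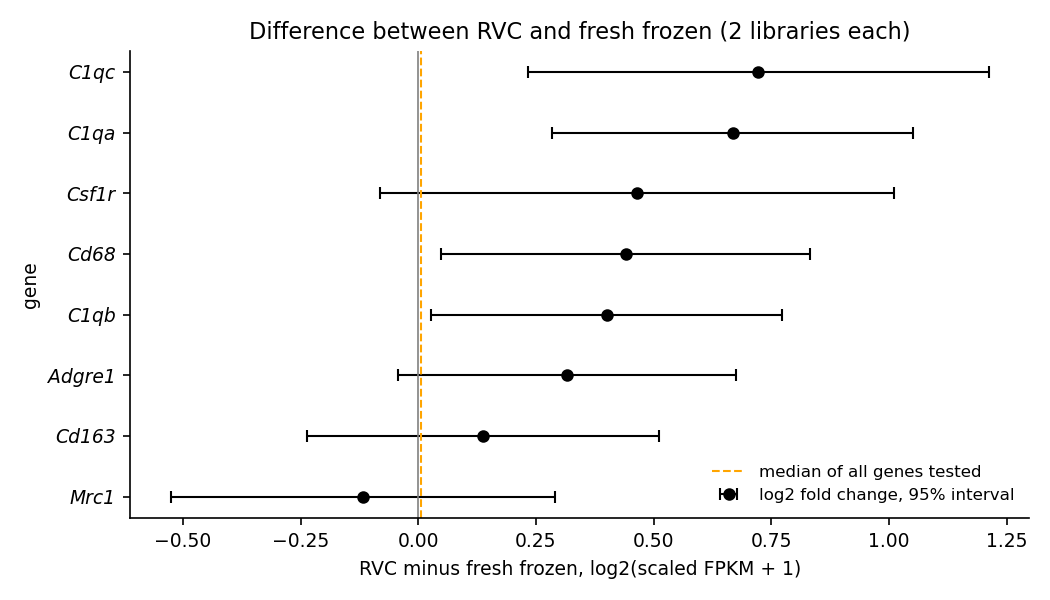
Difference between RVC and fresh frozen on the log2(scaled FPKM + 1) scale for the 8 tested genes, with 95% intervals from limma; the grey line is 0 and the dashed line the median of all genes tested, 0.0062. The intervals of C1qc, C1qa, Cd68 and C1qb lie above 0 without adjustment for multiple testing, and those of Csf1r, Adgre1, Cd163 and Mrc1 include it.

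Ordered by mean level over the 4 libraries, the genes ran C1qa (12.7 ± 3.76 FPKM), C1qb (11.0 ± 2.39), C1qc (9.69 ± 3.25), Csf1r (5.11 ± 1.63), Mrc1 (4.92 ± 0.798), Cd68 (2.98 ± 0.779), Adgre1 (2.64 ± 0.553), Cd163 (2.09 ± 0.318), Itgax and Cx3cr1 (SD, n = 4). The step from C1qc to Csf1r held in 4 of 4 libraries, as did those from Mrc1 to Cd68, from Adgre1 to Cd163 and from Cd163 to Itgax. Csf1r exceeded Mrc1 in 1 of 4 libraries, and Itgax exceeded Cx3cr1 in 2 of 4, so neither pair has an order. Neighbours C1qa and C1qb, C1qb and C1qc, and Cd68 and Adgre1 each kept their order in 3 of 4. Against a median of 6.61 FPKM over tested genes, C1qa stood at the 67.4th percentile and Cd163 at the 18.6th.

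The mean of the 3 C1q genes held a steady proportion to Cd68. It was 3.48 and 4.13 times Cd68 in RVC 1 and 2 and 3.66 and 3.65 times in FF 1 and 2, a mean log2 ratio of 1.90 ± 0.10 (SD, n = 4). Its ratio to Csf1r was 1.86, 2.77, 3.37 and 1.36 in the same order (mean log2 1.14 ± 0.59). To Mrc1 it was 3.37, 2.53, 2.198 and 1.29 (1.15 ± 0.58). The ratio to Cd68 therefore varied less over the libraries than those to Csf1r and Mrc1.

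**Figure D4:**
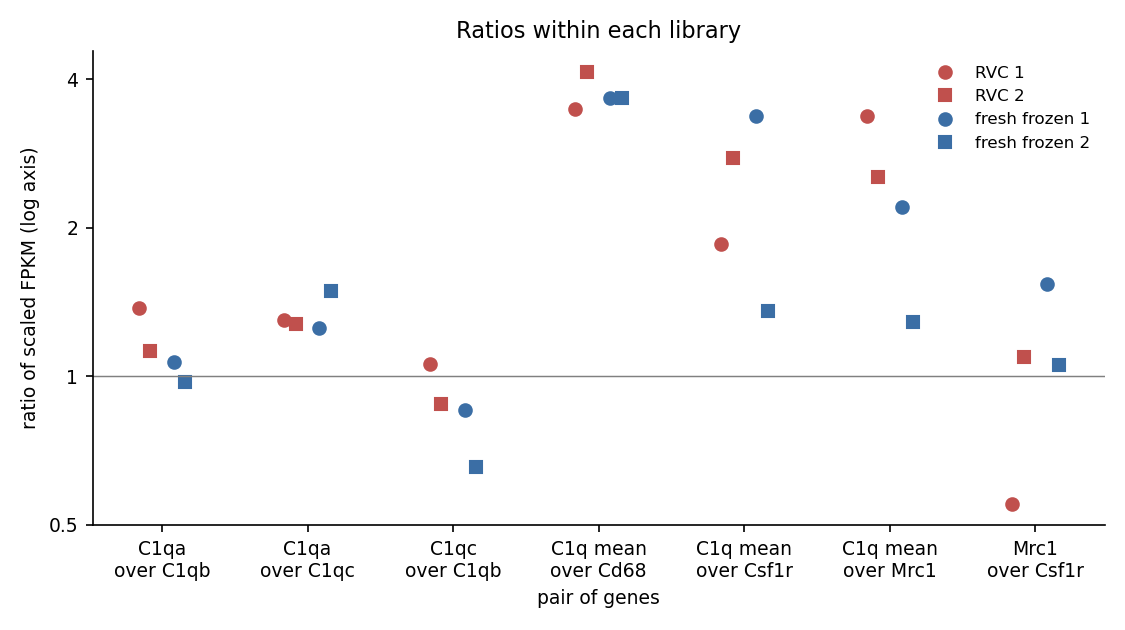
Ratios between the genes within each library on a log axis, RVC in red and fresh frozen in blue, sample 1 as circles and sample 2 as squares. The ratio of the C1q mean to Cd68 stays between 3.48 and 4.13, while that to Csf1r runs from 1.36 to 3.37 and that to Mrc1 from 1.29 to 3.37.

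Likeness to C1q was measured as the root-mean-square difference between a gene's centred log2 profile and that of the C1q mean over the 4 libraries. It was taken among 7423 tested genes with a mean of at least 5 FPKM. These left out the members and predicted genes (named Gm with a number, or ending in Rik). The C1q genes are part of that mean, which lowers their own distances. The 5 nearest outside C1q were Cyp2d34 (0.0236), Gngt2 (0.0247), AI413582 (0.0328), Nbl1 (0.0404) and Ly6g (0.042). C1qa itself was at 0.0505, C1qc at 0.0924 and C1qb at 0.127, and 62 genes were at least as close as C1qb. Of the other macrophage genes, measured the same way whatever their level, Cd68 was nearest at 0.116, followed by Adgre1 at 0.230 and Cd163 at 0.283, and Csf1r and Mrc1 were far, at 0.438 and 0.447. With 4 libraries a profile of this kind is shared by many genes.

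Other genes of macrophages and complement were taken as 9 lists of 106 genes in all, of which 105 were in the files (Irf8 was not analysed here) and 63 were tested. None passed the adjusted threshold in limma, where 0.0363% of all tested genes passed. At an unadjusted p under 0.05 there were 12 with higher and 1 with lower values in RVC, where 9.38% and 8.99% of all genes passed. The difference was above 0 for 45 and below 0 for 18, with a median of 0.15, beside 51% of all genes above 0.

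Of 18 further macrophage genes 16 were tested, with 11 differences above 0, 5 below and a median of 0.26. The most abundant were Ctss, a lysosomal protease, at 347, 375, 351 and 280 FPKM in RVC 1, RVC 2, FF 1 and FF 2, and Lyz2, lysozyme, at 63.1, 62.5, 45.1 and 45.0. Apoe, a lipid carrier, had 66.5 and 63.3 FPKM in RVC and 37.4 and 44.5 in FF (difference 0.66, limma adjusted p = 0.129). Pf4, a chemokine made by platelets and some resident macrophages, had 13.2 and 10.9 against 7.35 and 7.10 (0.66, limma adjusted p = 0.129). Lyz2, Apoe and Pf4 thus had the C1q order of groups, Apoe and Pf4 being named for the largest differences of the list. Ctss overlapped, and Cd14, the endotoxin co-receptor, had a difference of -0.30 with both RVC libraries below. Over the 16 tested genes, 6 had both RVC libraries above and 2 both below, against 26.5% and 26.6% of all tested genes. Ctss and Lyz2 are also made by other cells of the gut, which bulk values do not separate.

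Of 12 genes of resident and perivascular macrophages 6 were tested, with a median of 0.19. Lyve1, a hyaluronan receptor also made by lymphatic endothelium, had 14.2 and 17.3 FPKM in RVC and 8.04 and 7.20 in FF, the lowest adjusted p of the 9 lists (difference 0.96, SE 0.14, limma adjusted p = 0.104). Folr2, a folate receptor, had 3.89 and 3.88 against 2.72 and 2.07 (0.53, limma adjusted p = 0.162). Cbr2, a carbonyl reductase, overlapped with a difference of -0.11, as did F13a1, the coagulation factor XIII A chain, with 0.16. Stab1, a scavenger receptor, had 3.73, 6.80, 3.74 and 7.20 FPKM in RVC 1, RVC 2, FF 1 and FF 2. Samples numbered 2 were also the higher ones for the gene sums of Mrc1 and Itgax, though not for RVC on the 4046-nt Itgax form alone. The share of all genes with that order was not counted. Across all tested genes, same-numbered samples deviated from their group means with a correlation of -0.13. Timd4 and Cd4, which mark long-lived gut macrophages, were both under 1 FPKM in all 4 libraries.

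Macrophage transcription factors differed little. Of 12 listed, 11 were in the files and 8 were tested, 6 above 0 and 2 below, with a median of 0.039 and a largest difference of 0.26 for Zeb2, a repressor that maintains macrophage identity (limma adjusted p = 0.372). Id3 was the most abundant (19.0 FPKM on average, difference -0.020), followed by Cebpa (8.32, difference 0.19). Spi1, which encodes PU.1, was at 1.10 and 0.975 FPKM in RVC and 0.926 and 0.667 in FF and was not tested.

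Of 6 other scavenger receptors 4 were tested, 2 above 0 and 2 below, with a median of -0.037. Cd36, a fatty acid transporter, had a difference of -0.36 (limma adjusted p = 0.268), Scarb1, the receptor for high-density lipoprotein, 0.26, and Colec12 0.056. Of 12 genes of interleukin 10, TGF beta and macrophage activation 5 were tested, with a median of 0.24. Il10 was listed at 0 in all 4 libraries. Il10rb, the shared chain of its receptor, was at 49.1, 47.3, 41.7 and 39.7 FPKM in RVC 1, RVC 2, FF 1 and FF 2, and Tgfbr2 and Tgfb1 had differences of 0.33 and 0.35. Retnla, a product of alternatively activated macrophages, overlapped at 13.003, 7.91, 15.2 and 5.63 FPKM. Il10ra, the chain that binds interleukin 10, was below 1 FPKM in all 4.

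Of 24 other complement proteases and components 9 were tested, 8 above 0 and 1 below, with a median of 0.11. C3, the central component, had 77.8, 43.3, 62.6 and 73.6 FPKM in RVC 1, RVC 2, FF 1 and FF 2, with RVC 2 lowest and a difference of -0.22 (SE 0.25, limma adjusted p = 0.648). Cfb, of the alternative pathway, was at 32.7, 31.9, 36.6 and 26.3 FPKM. C1s1, a protease of the C1 complex, was at 8.00, 11.6, 7.39 and 8.01 FPKM, and its difference of 0.29 had an overlap between groups. The largest differences of the list were 0.35 for Cfp, properdin, and 0.32 for C4b, the C4 component of the classical pathway. C8a, C8b, Mbl1 and Mbl2 were listed at 0 in all 4 libraries. C3 and Cfb were thus more abundant than the C1q genes and lacked their difference between groups.

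Of 10 complement regulators 8 were tested, 4 above 0 and 4 below, with a median of 0.019. Cr1l, which limits C3 deposition on cells, was highest at 38.4 FPKM on average (difference -0.20), followed by Cd55, decay-accelerating factor, at 20.1 (0.045). Serping1, the C1 inhibitor that stops C1r and C1s, had 21.3 and 23.7 FPKM in RVC and 16.3 and 14.7 in FF, a difference of 0.51 (SE 0.12, limma adjusted p = 0.134). C4bp, a cofactor for C4b cleavage, had -0.41 with overlapping groups. Of 9 complement receptors and C1q-binding proteins 4 were tested, with a median of 0.16. Calr, calreticulin, which binds C1q on dying cells, was at 127.6 FPKM on average (0.039), Lrp1, its partner on phagocytes, had a difference of 0.31 and Itgb2, the beta chain of complement receptors 3 and 4, 0.28.

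No marker of another cell type passed the adjusted threshold in limma, where 0.0363% of all tested genes passed. All 8 smooth muscle markers were higher in both RVC libraries, an order that 26.5% of all tested genes had. Their median difference was 0.88, with summed levels of 1121 and 1668 FPKM in RVC against 678 and 742 in FF. All 7 endothelial markers were higher in both RVC libraries as well, with a median of 0.54 and sums of 21.8 and 21.7 FPKM against 11.0 and 13.6. Of 7 epithelial markers, which include keratins and mucin 2, 6 were above 0 with a median of 0.10, and the sums of 3856 and 3669 FPKM in RVC and 3749 and 3286 in FF overlapped. All 6 fibroblast markers overlapped between groups, with sums of 125.3 and 151.6 FPKM in RVC and 143.7 and 123.7 in FF. The part of muscle and vessel RNA in the C1q and Cd68 differences was not tested.

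Most markers of other immune cells had means under 1 FPKM, and a few were abundant. Of 11 dendritic cell markers 9 had means under 1 FPKM, among them the lineage genes Zbtb46 and Flt3, and the other two were the antigen-presentation genes H2-Ab1 (20.9 and 19.9 FPKM in RVC, 14.5 and 16.3 in FF) and Cd74 (37.5 and 33.0, 21.9 and 31.1). The list's summed level was 61.7 and 55.3 FPKM in RVC and 38.1 and 49.3 in FF. Of 6 neutrophil markers 5 were under 1 FPKM, with Mpo at 0 in all 4 libraries, and Ly6g alone was high (288 and 332 FPKM in RVC, 249 and 171 in FF). Of 5 monocyte markers 3 were tested, and Ccr2, the receptor that brings monocytes into tissue, had 0.856 and 0.949 FPKM in RVC and 2.21 and 1.29 in FF, opposite in direction to C1q (-0.51, SE 0.20, limma adjusted p = 0.244). The monocyte sums, 1582 and 1643 FPKM in RVC and 1629 and 1343 in FF, were almost wholly Plac8, which was at 1544 FPKM on average. All 6 T cell markers had means under 1 FPKM, with sums of 2.36 to 3.94. Of 6 B and plasma cell markers 2 were tested, Jchain and Mzb1. Both were higher in both RVC libraries, an order that 26.5% of all tested genes had. The list's sums were 106.1 and 92.0 FPKM in RVC and 70.7 and 88.1 in FF. They were mostly Jchain, at 99.9 and 85.8 FPKM in RVC and 68.1 and 82.8 in FF. Mast cell sums were 4.55 and 4.98 FPKM in RVC and 5.16 and 8.27 in FF, mostly Kit, which is not only a mast cell gene. Sums for enteric neurons and glia overlapped, at 17.7 and 14.4 FPKM against 9.77 and 14.7. The sums for fat and serosa were 14.8 and 12.2 FPKM in RVC and 12.7 and 12.9 in FF. The part of these cell types in the macrophage values was not tested.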

How the data were processed

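RNA of 4 libraries was depleted of ribosomal RNA, made into KAPA HyperPrep libraries and read as 150-bp pairs on an Illumina NextSeq, per the labels' protocols. Reads were aligned with TopHat 2.1.1 to GRCm39 and quantified with Cufflinks 2.2.1, per the submitters' processing notes. The authors deposited FPKM per transcript with confidence bounds, plus a coverage signal, per the file headers. Annotation release and strand setting are not given in the sources used here. Cufflinks assigns shared reads to transcripts by a likelihood. A count test does not suit FPKM and was not run.

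Gene FPKM was summed over transcripts, scaled by median ratio and analysed as log2(scaled FPKM + 1), with a pseudocount of 1. Transcript values are printed as deposited, unscaled. Genes with a mean of at least 1 FPKM, a longest transcript of at least 300 nt and estimates of status OK were tested (13775; 24188 transcripts) with limma 3.58.1 in R 4.3.3 (lmFit, eBayes with trend, two-sided, all 4 libraries, without covariates). The adjusted p (Benjamini-Hochberg) covers all of them, with a threshold of 0.05. The fit was tested on simulated data, with independent genes, no batches and noise drawn from the spreads of the same fit. That simulation therefore cannot check these assumptions for the real libraries. Positions count from 1, and 99.1% of the transcripts were in GENCODE vM39. Tables were handled in pandas 2.3.3, and matplotlib 3.10.9 drew the figures. The members and gene lists were chosen with earlier results of these data known. All 10 members are named, and from each related list the 3 most abundant genes and the 2 tested genes with the largest difference. One item that the rule names is not reported here. Other list genes, and the transcripts described, were picked after their values were seen. For likeness to C1q the 5 nearest genes are named. Alternatives were other scalings, pseudocounts, filters and transcript sums, no trend, a replicate block and each library left out.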

Additional observations from a re-analysis of the deposited data

How the results depend on the processing

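Of 124 values of the 8 tested genes under the alternatives, 121 kept their direction and side of the threshold, 2 reversed (Mrc1 0.093 without RVC 1, in a range of -0.33 to 0.093 with each library left out, and Cd163 -0.0051 without RVC 2, in a range of -0.0051 to 0.28) and 1 passed (C1qc, 1.05, limma adjusted p = 0.0425, without FF 1). Among 118 transcript values 2 reversed, the 5374-nt Mrc1 form (-0.33 to 0.098, the latter without RVC 1) and the 416-nt Csf1r form (-0.27, without FF 1, to 1.24). Leaving out each library gave 0 to 1 members called, member medians of 0.26 to 0.47 and 8 to 37 genes called, in place of 0, 0.42 and 5; the lone sample of a group was then assumed to vary like the others. The count of genes called was 0 with no filter on low values, 0 without a trend and 0 when forms shorter than 300 nt were not summed, where 3531, 2462 and 2577 genes had an unadjusted p under 0.05. It was 2 at a mean of at least 5 FPKM, where the median of the 4 members left was 0.57, and 1 when each gene was represented by its most abundant form. With a replicate block on the sample number 123 genes were called, and with the numbers crossed, a fit added after seeing the data, 12; neither called a member. Same-numbered samples deviated from their group means with a correlation of -0.13 across genes. Whether they share more than a number, such as a mouse, cannot be told from these 4 libraries. The cause of these shifts was not tested. Absolute depth is unknown, and 4 libraries and values near 1 FPKM limit the precision.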
